A study of Mus musculus with 8 samples.

Results

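The genes described here are 6 genes chosen by the fold enrichment, height and clustering of their SMAD4 peaks in both lists of these data: Kdm1a, Gse1, Arid1b, Zmiz1, Cxxc5 and Tut7. They are 6 of 21887 protein-coding genes in the RefSeq annotation used. A peak was counted for a gene when its summit, the position of highest coverage, lay inside the gene body or within 100 kb of it, and within 400 kb for Arid1b. By that rule the genes held 21 of the 4333 peaks called after BMP9/10 stimulation and 13 of the 1133 peaks called without it. Those values are therefore given as a description, with no test.

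The data are ChIP-seq of SMAD4 in MS1 cells, an immortalized endothelial line from mouse pancreatic islets. All cells were starved of serum for 24 h. The stimulated groups (2 SMAD4 immunoprecipitates, called IP, and 2 input DNA libraries) then received BMP9/10 recombinant protein at 1 ng/mL, and the unstimulated groups (2 IP and 2 input libraries) received fresh medium. The letters KD, which no label explains, stand in the titles of the IP libraries labelled as stimulated. The authors merged the 2 IP libraries of a condition, and the 2 inputs, before calling peaks, so every value below is that of a pool, no peak has a replicate error and no difference between the conditions has a replicate check. The stimulated list rests on 41044888 IP tags and the unstimulated list on 52971023. Everything comes from 1 cell line, and the files hold binding and no expression, so the labelled cell type could not be checked against markers.

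BMP9 and BMP10 bind the endothelial receptor ALK1, which phosphorylates receptor-activated SMADs. These enter the nucleus with SMAD4, bind short SMAD elements in DNA, and change transcription together with coactivators, corepressors and chromatin enzymes. Most of the genes described here encode such partners. Kdm1a encodes LSD1, a demethylase of histone H3 and the catalytic core of the CoREST corepressor, and GSE1 has been found in complexes with LSD1 and histone deacetylases. Arid1b encodes a DNA-binding subunit of the BAF chromatin remodeller. Zmiz1 encodes a PIAS-like coactivator that can augment SMAD-dependent transcription, and Cxxc5 encodes a CXXC zinc finger protein known as a BMP-induced inhibitor of Wnt signalling. Tut7 stands apart in function, since its product adds uridines to RNA and is neither a chromatin protein nor a known SMAD cofactor.

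SMAD4 peaks at these genes took 3 forms. Kdm1a, Arid1b and Tut7 each had 1 wide peak in each list, tall in both at Kdm1a and Arid1b and tall in the stimulated list alone at Tut7, whose unstimulated height of 0.755 per 1000000 IP tags was near that list's median of 0.698. Gse1 and Cxxc5 had several peaks, with 8 and 5 in the stimulated list and 2 and 3 in the unstimulated list. Zmiz1 had 5 low, narrow peaks in each list, of which 2 stimulated and 0 unstimulated ones had a −log10 q of at least 10, against 35.8% of all stimulated and 32.7% of all unstimulated peaks. The highest unstimulated Zmiz1 value was 9.65, close to that cutoff. For comparison, 36.5% of all protein-coding genes had a stimulated summit inside or within 100 kb, 13.1% had an unstimulated one and 12.9% had both. Within 400 kb, the distance used for Arid1b, the shares were 68.7% and 33.9%. Having a peak in the window was therefore common, and for Arid1b more common than not in the stimulated list. Summits inside the gene body were less common, at 7.08% of genes in the stimulated list and 1.98% in the unstimulated list. They were found at Kdm1a, Gse1, Zmiz1 and Tut7 in both lists and at Cxxc5 in the stimulated list. Each of the 21 stimulated and 13 unstimulated peaks had its gene as the nearest protein-coding gene. For the 15 stimulated and 9 unstimulated summits inside a gene body this holds by definition, so only the other 6 and 4 could have differed. When RNA genes and pseudogenes could compete, 5 stimulated and 4 unstimulated peaks were closer to another gene, as given below.

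**Figure D1:**
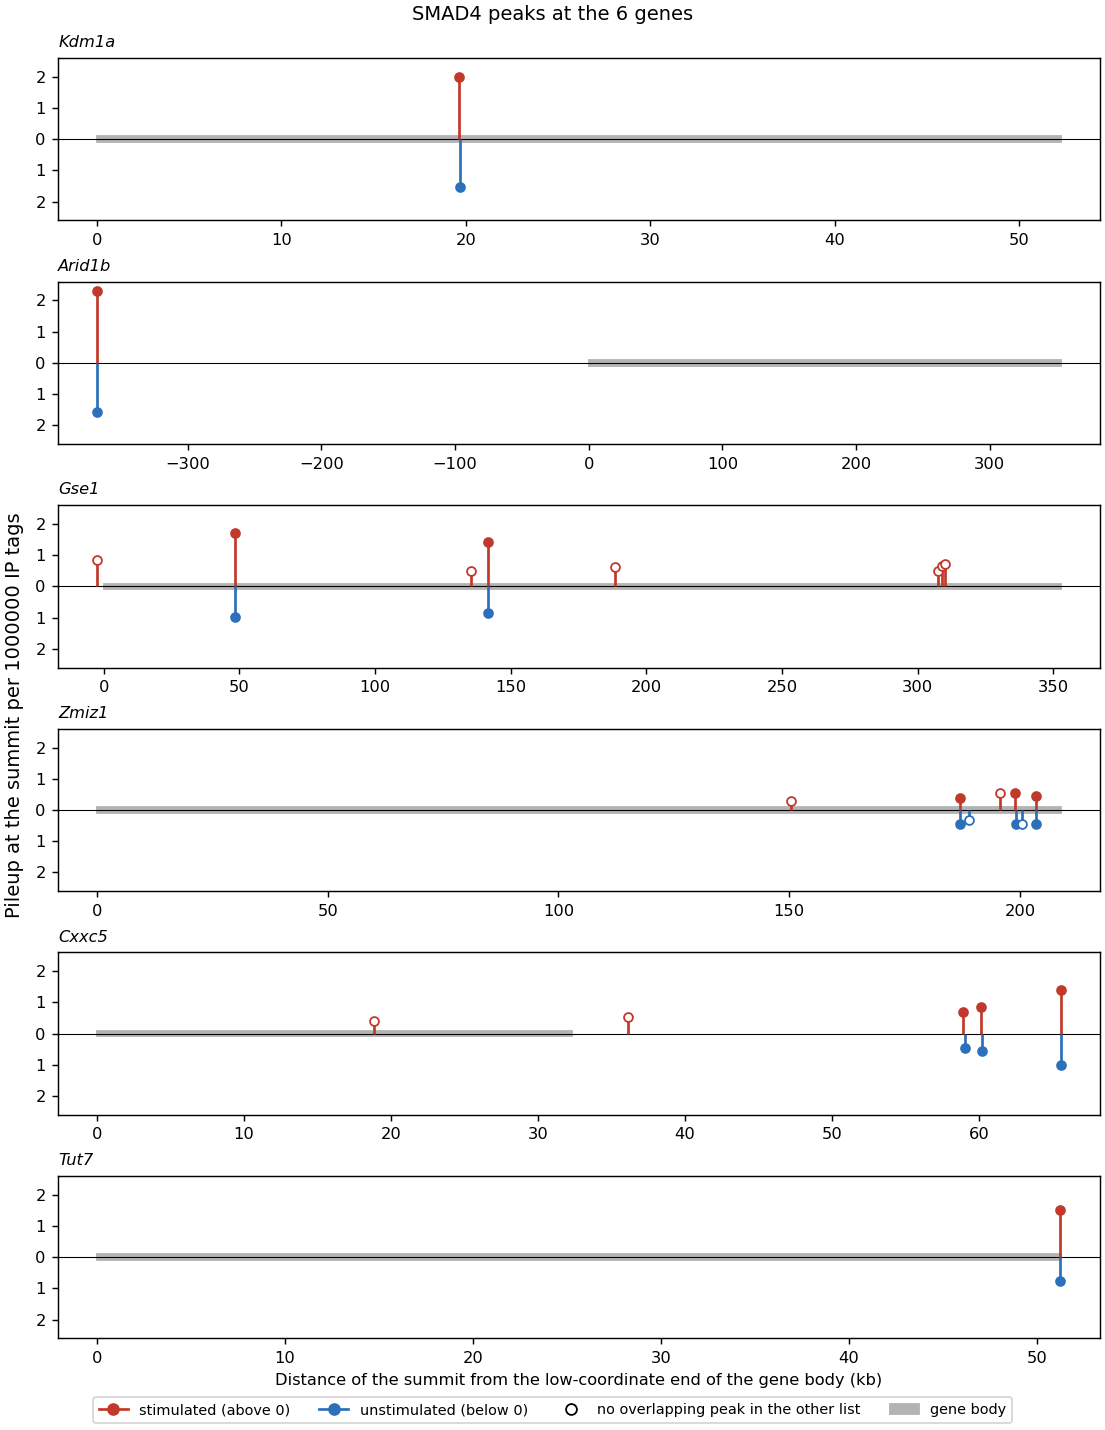
SMAD4 peaks by distance of the summit from the low-coordinate end of each gene body (kb, x axis), with the pileup at the summit per 1000000 IP tags as height, stimulated above 0 and unstimulated below. Open circles mark peaks with no overlapping peak in the other list. Gse1 has 6 open stimulated peaks, Zmiz1 has 2 open peaks in each list, and the Kdm1a, Arid1b and Tut7 sites are filled in both.

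Tut7, which encodes a terminal uridylyltransferase acting on messenger RNA tails and microRNA precursors, carried its peak at its promoter. On mm10 chromosome 13 the stimulated peak ran from 59822718 to 59823273 (556 bp) and the unstimulated peak from 59822859 to 59823224 (366 bp), and both had their summit at 59823093. That base is 17 bp downstream of one listed transcription start of Tut7 and 54 bp downstream of the other, on the minus strand. The sequence is shown because it is the only site of this gene group where a called peak of each list covers a listed start. RefSeq (GRCm38.p6) gives these 300 bases of the gene strand, chr13:59823061-59823360, in which capitals mark AGAC or GTCT, the core SMAD element on either strand, and GGCGCC, the GC-rich SMAD element.

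Tut7: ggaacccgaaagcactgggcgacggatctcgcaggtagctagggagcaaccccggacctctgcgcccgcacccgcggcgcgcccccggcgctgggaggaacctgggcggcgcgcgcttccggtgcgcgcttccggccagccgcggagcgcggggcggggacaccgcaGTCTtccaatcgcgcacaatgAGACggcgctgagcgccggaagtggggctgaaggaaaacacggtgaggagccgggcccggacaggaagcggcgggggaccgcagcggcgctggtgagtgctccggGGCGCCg

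The stimulated peak covered 213 of these bases and the unstimulated peak 164, and every capitalized match lay inside both peaks. The GTCT and AGAC matches begin 83 and 62 bp upstream of the start, and the GGCGCC match begins 43 bp downstream of it. These letters are not rare. Of 32851 listed promoter windows of 300 bases, 88.0% held AGAC on either strand, 49.6% held CAGAC, which the Tut7 window did not, and 11.9% held GGCGCC. The window was 74.3% G and C, against a median of 52.7% over all windows. An ETS element, GGAAGT, was also matched once, and 23.8% of windows held one. The BMP response element, GGCGCC followed after any 5 bases by GTCT and searched on both strands, was not in these letters and was in 0.0731% of all windows.

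Of the 6 genes, Tut7 had the site whose height differed most between the conditions. The pileup is the number of IP tags over the summit, each taken as 100 bp long. It was 62 tags in the stimulated pool and 40 in the unstimulated pool, or 1.51 and 0.755 per 1000000 IP tags. The ratio of stimulated to unstimulated was 2.00 per tag (95% exact binomial interval 1.32 to 3.06, which covers counting error only). Among all 1078 pairs of overlapping peaks, 95.5% had a lower ratio. The Tut7 interval nevertheless includes the median ratio of all pairs, 1.47. The local background was at the genome-wide floor of 0.0535 tags per 1000000 in each list, so the authors' fold enrichment over background, 19.7 stimulated and 10.7 unstimulated, moved with the pileup. By fold enrichment the peak ranked 4 of 4333 and 8 of 1133, and by pileup 144 and 427.

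Kdm1a, the LSD1 gene on chromosome 4 (136550533 to 136602787), held its peak deep inside the gene body, 32.5 kb downstream of the listed start. The stimulated peak spanned 136569899 to 136570476 (578 bp) and the unstimulated one 136569955 to 136570518 (564 bp), with summits 39 bp apart. The pileup was 82 tags in the stimulated pool and 81 in the unstimulated pool, or 2.00 and 1.53 per 1000000 IP tags. It ranked 37 of 4333 by pileup in the stimulated list and 27 of 1133 in the unstimulated list. By fold enrichment (19.3 stimulated, 16.7 unstimulated) it ranked 5 and 2. Only 0.794% of unstimulated peaks were at least as wide, itself included. The ratio of 1.31 (0.949 to 1.80) had an interval that includes 1, and 25.3% of all pairs had a lower ratio. The next peak outside the window lay 365 kb from the gene in the stimulated list (0.512 per 1000000) and 402 kb from it in the unstimulated list (0.491).

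Gse1, on chromosome 8 (120228501 to 120581383), had the most stimulated peaks of the group. Of the 8, 7 lay inside its 353 kb gene body, and the unstimulated list had 2, both inside. Over all protein-coding genes 2 (0.00914%) had 7 or more stimulated summits inside the gene body. Of the 990 genes at least 200 kb long, 27% had 1 or more and 0.202% had 7 or more. These shares count every called peak. At Gse1, 4 of the 8 stimulated and 2 of the 2 unstimulated peaks had a −log10 q of at least 10. Over all peaks those shares were 35.8% and 32.7%. Both unstimulated sites had a stimulated counterpart, as did 95.9% of all unstimulated peaks, and the other 6 stimulated peaks had no unstimulated counterpart. The lists give no value where no peak was called, so the unstimulated level at those 6 sites is not known. Over the whole stimulated list 24.9% of peaks overlapped an unstimulated one.

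The tallest Gse1 site lay 48.2 kb from the low-coordinate end of the gene (120276035 to 120277290). It was 1256 bp wide in the stimulated list, the second widest peak of the 4333, and 414 bp wide in the unstimulated list, with the summit on the same base. Its pileup was 70 tags in the stimulated pool and 52 in the unstimulated pool (1.71 and 0.982 per 1000000), a ratio of 1.74 (1.20 to 2.54). The other shared site, 142 kb from that end, had 59 and 45 tags (1.44 and 0.850 per 1000000), a ratio of 1.69 (1.13 to 2.55), with summits 2 bp apart. Both intervals lay above 1. The peaks found in the stimulated list alone were lower, from 0.487 to 0.853 per 1000000 IP tags, with widths of 154 to 393 bp. That is near the level of the list as a whole, whose median peak had 0.707 per 1000000.

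Of these stimulated-only Gse1 peaks, 3 stood together within 2.51 kb, around 2 of the 3 transcription starts listed for the gene. Their pileups were 0.487, 0.658 and 0.707 per 1000000 IP tags, at 332 bp, 44 bp and 1285 bp downstream of the nearest listed start. The middle one (120537296 to 120537543, fold enrichment 7.57) covered 163 bases of a listed promoter window, and its summit also lay inside the RNA gene 1700016A09Rik. Over all peaks, 13.4% in the stimulated and 9.71% in the unstimulated list overlapped a listed promoter window. The window, on the plus strand at chr8:120537159-120537458, is shown because the stimulated peak falls on it. Capitals mark the same elements, with CAGAC or GTCTG in full where the longer form was matched.

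Gse1: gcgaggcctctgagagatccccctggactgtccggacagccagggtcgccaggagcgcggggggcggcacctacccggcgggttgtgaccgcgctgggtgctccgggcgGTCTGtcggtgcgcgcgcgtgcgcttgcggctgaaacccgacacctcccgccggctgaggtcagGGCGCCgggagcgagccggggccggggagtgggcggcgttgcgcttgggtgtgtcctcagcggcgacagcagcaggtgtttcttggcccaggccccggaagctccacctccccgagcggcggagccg

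The GGCGCC match, 77 bp upstream of the start, lay inside the stimulated peak, and the GTCTG match, 141 bp upstream, lay just outside it. GTCT and GGCGCC were also matched, outside every called peak, in the listed window of Kdm1a and in that of another Gse1 start. The window was 74.7% G and C. The remaining stimulated-only peaks were at 2.59 kb outside the low-coordinate end, inside the RNA gene A330074K22Rik (0.853 per 1000000), and at 2 positions inside the gene body (0.487 and 0.609).

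Arid1b, the BAF subunit gene on chromosome 17 (4994297 to 5347656), had no summit in its gene body or within 100 kb in either list. Its site lay 368 kb from the gene body, on the side of the listed start, and inside the RNA gene Gm34259. It ran from 4626183 to 4626681 (499 bp) in the stimulated list and from 4626210 to 4626594 (385 bp) in the unstimulated list. Arid1b is the nearest protein-coding gene, and whether the site acts on it was not tested. The pileup was 94 tags in the stimulated pool and 83 in the unstimulated pool, or 2.29 and 1.57 per 1000000 IP tags, the highest of the group in each list. The ratio was 1.46 (1.08 to 1.99), close to the median of all pairs.

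At this site fold enrichment and pileup ran in opposite directions. The authors' fold enrichment was 13.6 in the stimulated list and 16.8 in the unstimulated list, where it was the highest of all 1133 peaks. The local background there was 6 tags in the stimulated list and 4 in the unstimulated list, or 0.146 and 0.0755 per 1000000 IP tags. The stimulated peak was thus taller per tag over a background that was also higher. These background numbers are small, and no counting interval was computed for them.

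Zmiz1, the SMAD coactivator gene on chromosome 14 (25457875 to 25666743), had low and narrow peaks. All 5 stimulated peaks were 127 to 171 bp wide and all 5 unstimulated peaks 105 to 190 bp, where 47.5% of stimulated and 57.9% of unstimulated peaks of the whole lists were under 200 bp. The stimulated pileups were 12, 16, 22, 22 and 18 tags in order along the chromosome, or 0.292 to 0.536 per 1000000 IP tags. The unstimulated pileups were 24, 17, 23, 23 and 23 tags, or 0.321 to 0.453 per 1000000. None reached the median of its list, which was 0.707 in the stimulated list and 0.698 in the unstimulated list. Over all protein-coding genes 0.0822% had 5 or more stimulated summits inside the gene body and 0.00914%, which is Zmiz1 and Atp6ap2, had 5 or more unstimulated ones. Zmiz1 is a long gene (209 kb), and among the 990 genes at least 200 kb long 1.01% had 5 or more stimulated summits inside.

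The Zmiz1 peaks gathered near the high-coordinate end of the gene, which is its downstream end. The unstimulated ones lay within 16.6 kb, and 4 of the stimulated ones overlapped that stretch, the fifth lying 36.6 kb from its neighbour. Of 5 peaks in each list, 3 overlapped a peak of the other list, where 24.9% of all stimulated and 95.9% of all unstimulated peaks did. The local background was at the genome-wide floor at all 5 stimulated peaks and at 3 unstimulated ones, against 5.10% and 2.38% of all peaks. At the shared sites the ratios were 0.860 (0.427 to 1.69), 1.23 (0.656 to 2.32) and 1.01 (0.514 to 1.96). A ratio below 1 was found at 1.58% of all pairs, and the lowest Zmiz1 ratio ranked 7 of 1078 from the bottom. The tag numbers are small and each interval includes 1, as well as the median of all pairs.

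The nearest site outside the window was 1213 kb from Zmiz1 in the stimulated list and 3341 kb away in the unstimulated list. Counting peaks under 200 bp alone, 6 protein-coding genes had 4 or more in the stimulated list inside the gene body. These were Pde4d with 6, Atp6ap2, Frmd4a and Zmiz1 with 5 each, and Bcor and Unc5b with 4 each. Whether the Zmiz1 peaks mark SMAD4 binding, and whether they are separate sites, was not tested.

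Cxxc5, on chromosome 18 (35829379 to 35861693), had its shared peaks outside the gene body, and no unstimulated peak lay inside. These 3 sites lay 26.6, 27.9 and 33.3 kb beyond the high-coordinate end and spanned 6.65 kb in the stimulated list. By distance to any annotated gene they were closer to the RNA gene Gm36315, the middle one being inside it. The pileups were 28, 35 and 57 tags in the stimulated pool and 25, 29 and 53 tags in the unstimulated pool. Per 1000000 IP tags that is 0.682, 0.853 and 1.39 stimulated, and 0.472, 0.547 and 1.00 unstimulated. The order of the sites was the same in both lists, and the farthest was the tallest.

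The ratios at the Cxxc5 sites were 1.45 (0.813 to 2.58), 1.56 (0.925 to 2.64) and 1.39 (0.938 to 2.06), and each interval includes 1. The stimulated peaks were 544, 626 and 402 bp wide, the unstimulated ones 267, 161 and 389 bp. At the 2 nearer sites the stimulated local background was at the genome-wide floor, and the unstimulated one was above it. Per tag the stimulated background there was 0.745 and 0.708 times that of the unstimulated list, and at the farthest site it was 1.49 times. Fold enrichments were 9.08, 11.3 and 8.29 in the stimulated list, against 5.42, 6.0 and 8.71 in the unstimulated list, so the farthest site was again lower by fold enrichment and higher by pileup. The remaining 2 stimulated peaks were in the stimulated list alone, 1 inside the gene body (0.414 per 1000000) and 1 at 3.84 kb from it (0.536).

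**Figure D2:**
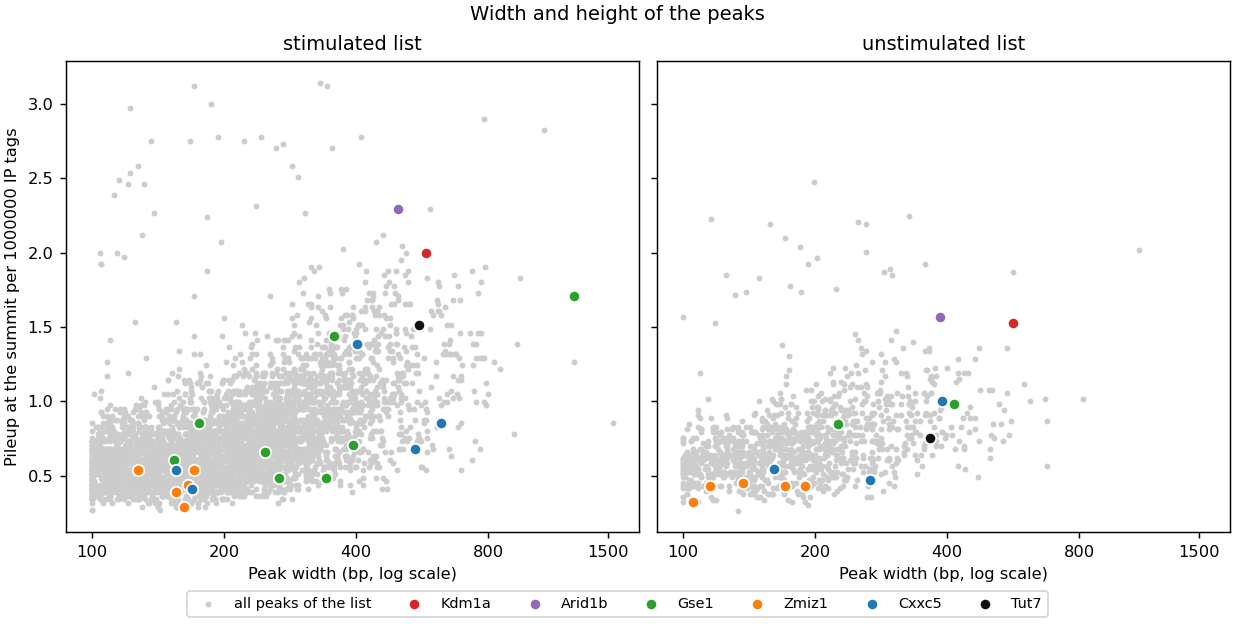
Peak width (bp, log scale) against pileup at the summit per 1000000 IP tags, with the stimulated list left and the unstimulated list right, all peaks in grey and those of the 6 genes in colour. Zmiz1 peaks sit at the low, narrow corner (up to 0.536 per 1000000), and Arid1b and Kdm1a are tall at 385 to 578 bp.

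Across the group, the 11 shared sites had a median pileup ratio close to that of all shared pairs. Their median ratio of stimulated to unstimulated pileup was 1.45, from 0.860 to 2.00, and 10 of 11 were above 1. Over all 1078 pairs the median was 1.47 (interquartile range 1.29 to 1.68) and 98.4% were above 1. The counting interval lay above 1 at 4 of the 11 sites, which were Tut7, Arid1b and both at Gse1, against 36.6% of all pairs. These shares are about equal, so an interval above 1 does not set the 4 sites apart. By the authors' fold enrichment the median ratio was 1.15 at the 11 sites and 1.40 over all pairs. Fold enrichment was lower in the stimulated list at 4 of the 11 sites, those of Arid1b, 2 at Zmiz1 and the farthest at Cxxc5, against 17.3% of all pairs.

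**Figure D3:**
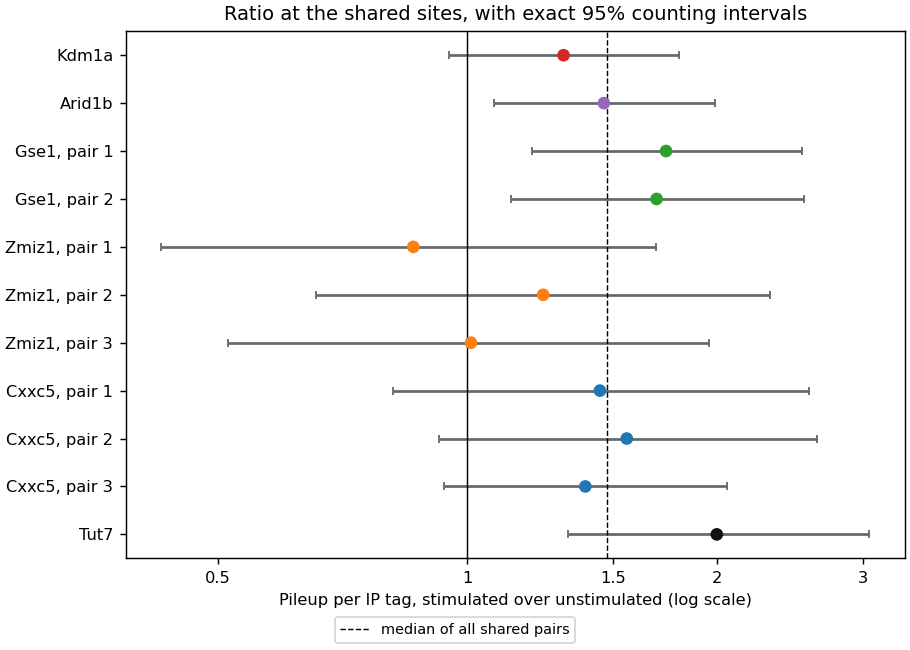
Ratio of stimulated to unstimulated pileup per IP tag (log scale) at the 11 shared sites, with exact 95% binomial intervals as bars, the solid line at 1 and the dashed line at the median of all shared pairs (1.47). The highest ratio is at Tut7 (2.00) and the lowest at Zmiz1 (0.860).

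The scaling of the tags decides part of this comparison. Without scaling to depth, the deposited pileups gave a median ratio of 1.12 and 1 interval above 1, that at Tut7 (1.55, 1.03 to 2.37). Over all 1078 pairs the unscaled median was 1.14 and 2.88% had an interval above 1, so the change of scale moved all pairs alike. The summits of shared sites lay 0 to 88 bp apart (median 15 bp), against a median of 31 bp over all pairs. Stimulated peaks were wider at 9 of the 11 sites and at 992 of all 1078 pairs.

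**Figure D4:**
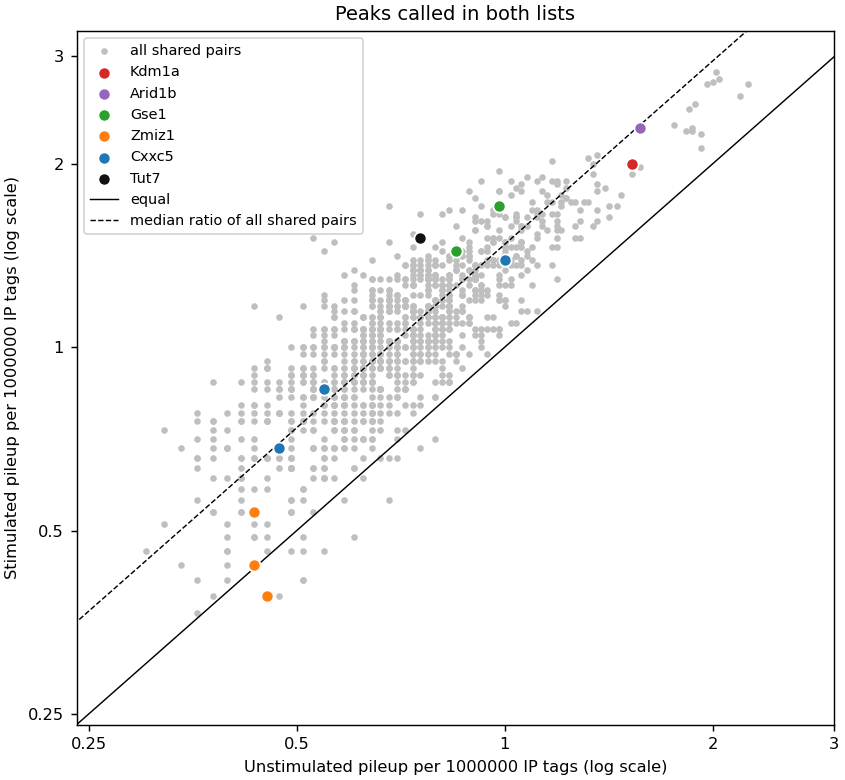
Stimulated (y axis) against unstimulated (x axis) pileup at the summit per 1000000 IP tags, both on log scales, for all 1078 shared pairs in grey and the 11 sites of the 6 genes in colour. Tut7 lies above the dashed line of the median ratio (1.47), and the Zmiz1 sites lie below it, near the line of equal values.

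Peaks near the border of the 100 kb window were few. No counted peak of Kdm1a, Gse1, Zmiz1, Cxxc5 or Tut7 lay between 33.3 kb and 100 kb from its gene body. Just outside, Gse1 had a stimulated peak at 118 kb (0.536 per 1000000 IP tags), and Cxxc5 had a site at 122 kb in the stimulated list (1.29) and 121 kb in the unstimulated list (0.774). For Arid1b the next peaks beyond 400 kb were at 473 kb (stimulated, 0.755) and 628 kb (unstimulated, 0.887). For Tut7 they were at 1074 kb in each list.

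Genes related in function were taken from lists written with earlier results of these data known. Of their 85 genes, 38 had a stimulated peak inside or within 100 kb (44.7%, against 36.5% of all genes) and 10 an unstimulated one (11.8%, against 13.1%), and each of the 10 also had a stimulated one. These counts and shares go by the window alone. For most of the 38 genes, no stimulated peak in the window had that gene as its nearest gene. The heights below are those of a gene's tallest peak in each list, which need not be the same site. Of 14 genes of LSD1-CoREST and histone deacetylase complexes, 3 had a stimulated peak and 1 an unstimulated one. Of 25 BAF and PBAF genes 13 had a stimulated peak and 3 an unstimulated one. Those with both were Arid1a, the alternative subunit to ARID1B in BAF (0.658 stimulated and 0.415 unstimulated per 1000000 IP tags, within 0.130 kb of the gene), Dpf1 (0.707 and 0.623) and Actb (1.83 and 1.17). The Dpf1 peaks were nearer to Yif1b, and the tallest Actb peak of each list was nearer to Fbxl18. Actb had 7 stimulated and 4 unstimulated peaks in the window, of which 2 and 1 had Actb as the nearest gene.

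Among 19 SMAD coactivator and PIAS family genes, 9 had a stimulated and 2 an unstimulated peak. Pias1, a SUMO ligase of the family to which ZMIZ1 is related, had 1.15 stimulated and 0.755 unstimulated per 1000000 at a site nearer to Cln6. Zeb1, which encodes a SMAD-interacting transcription factor, had 0.926 and 0.434, at 45.1 and 44.9 kb from the gene. Zmiz2, the paralogue of Zmiz1, had 1 stimulated peak 70.0 kb away (0.560), nearer to Purb, and 0 unstimulated ones. Of 15 CXXC domain and DNA methylation genes 8 had a stimulated and 3 an unstimulated peak, at Kdm2a (1.61 and 1.28), Kdm2b (1.36 and 0.755) and Dnmt1 (1.58 and 1.34), all nearer to another gene. Of 12 genes of RNA uridylation and microRNA processing 5 had a stimulated and 1 an unstimulated peak, at Tut1 (0.901 and 0.698, nearer to Eef1g). Tut4, the paralogue of Tut7, had 2 stimulated peaks, the taller 79.5 kb away (0.950) and nearer to Zfyve9, and 0 unstimulated ones.

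The 5 genes whose tallest shared site was most like the median of the 6 genes (1.61 per 1000000 stimulated and a ratio of 1.42) were N4bp3, Rnf222, Col5a3, Tmem170b and Ypel2. Likeness was the distance in log2 height and log2 ratio over the 2 lists, among 795 other genes nearest to a shared site. Their stimulated heights ran from 1.58 to 1.66 per 1000000 IP tags and their ratios from 1.40 to 1.47.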

How the data were processed

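SMAD4 ChIP-seq libraries of MS1 cells (8 samples) were reduced by the authors to 1 peak list per condition, by MACS2 (version 2.1.0.20140616 in the file headers). Per the file headers, 2 IP and 2 input libraries were merged and at most 1 tag per position was kept. The extension size was 100 bp, shorter than the tag size of 140 bp (stimulated) and 146 bp (unstimulated). The q cutoff was 0.01 and the local background spanned 1000 and 10000 bp. The band width setting was 200 (stimulated) and 300 (unstimulated), and the processing notes of the submitters give mm10 and HOMER. No aligner is given in the sources used here.

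The authors deposited pileup, a coverage signal, unscaled. It was divided here by IP tags after filtering. The deposited −log10 p and q values and the fold enrichment, the authors' ratio of pileup plus 1 to background plus 1, were used as given, and the background was recovered from them. A background within 1% of tags × 100 / effective genome size counted as the floor.

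Genes and promoter windows (250 bases before to 50 after a start) came from RefSeq GRCm38.p6, the assembly behind mm10. Peaks overlapping by at least 1 bp were shared (checked with bedtools 2.31.1) and paired once, closest summits first, without mitochondrial peaks. Ratio intervals are exact binomial at 95%, covering counting error only (scipy 1.17.1). The code was tested on simulated pileups and planted peaks. No genome was used, so motifs were searched in listed promoter windows instead of peaks, which were listed for 5 of the 6 genes.

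The genes and lists were chosen with earlier results of these data known. All 6 genes are named with every peak. Of the related lists, genes with a peak in both lists are named by rule, except 1 that is not reported here, while Zmiz2 and Tut4 were named as paralogues after their values were seen. Alternatives were other windows, thresholds, overlap rules, list lengths and scalings.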

Additional observations from a re-analysis of the deposited data

How the results depend on the processing

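With a −log10 q of at least 10 the 6 genes had fewer peaks, 12 of 21 stimulated and 7 of 13 unstimulated, where 35.8% and 32.7% of all peaks pass. Zmiz1 kept 2 of its 5 stimulated and 0 of its 5 unstimulated peaks. The 2 kept had 22 tags over a background of 2.19 and a −log10 q of 11.2. Unstimulated Zmiz1 peaks of 23 and 24 tags, over backgrounds of 2.83 and 3, had 9.29 and 9.65, close to the cutoff. Gse1 kept 4 of 8 and 2 of 2, and Cxxc5 kept 3 of 5 and 2 of 3. Shortening the stimulated list to the 1133 peaks of the unstimulated one (26.1%) left 10 stimulated, with 0 at Zmiz1 and 4 at Gse1. Both remove peaks by construction. Without scaling to depth 1 of 11 counting intervals lay above 1, in place of 4, and over all pairs 2.88%, in place of 36.6%, a share added after seeing the data. By the authors' fold enrichment the Arid1b ratio was 0.808, reversed from 1.46 by pileup. The local background there was 6 tags in the stimulated list and 4 in the unstimulated list. A 50 kb window gave 7.97% of protein-coding genes an unstimulated peak. Chosen after seeing the data, a −log10 q of at least 10 left 19 stimulated and 5 unstimulated related genes, and 0.129% and 11.1% of peaks as wide as the widest Gse1 peak. Apart from the Arid1b ratio, which is that of a single site, 30 alternative values were computed for the main results. Of these, 10 moved, as given here, counting as moved a count or share more than 1.5 times larger or smaller, or a median ratio outside 0.938 to 2.32, the medians of the bounds of the 11 counting intervals. The other 20 stayed within that tolerance, among them 15 stimulated summits inside gene bodies, 25.4% of genes with a stimulated peak within 50 kb, and the unscaled median ratio of 1.12. The range 0.938 to 2.32 includes 1, so a median ratio inside it can still mean no difference. Some of the 20 could not move. Shortening the stimulated list leaves the 13 unstimulated peaks as they were, and the median background ratio used as a divisor was 1.00. Motif searches in whole peaks and around summits were not run. Leaving out a replicate was not possible, since the lists are of pools. No paired analysis was possible because the lists hold no value per replicate. Tag numbers of 12 to 94 per summit limit every ratio.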
